A study of Mus musculus with 4 samples.

Results

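The voltage-gated sodium channel genes (Scn), the calcium channel subunit genes (Cacna, Cacnb and Cacng) and the pacemaker channel genes (Hcn) were compared across the 4 libraries of the series. Members were matched by gene symbol, and 42 of the 17550 genes listed in any library belonged to these families. Of these, 18 reached 1 RPKM (reads normalised to the length of the gene model and to the total of uniquely assigned reads) in 1 library or more, and most of these are described one by one. The other 24 stayed below 1 RPKM in all 4 libraries and were counted only. Each library held total RNA from the left ventricle of C57BL/6 mice aged 8 weeks, taken 3 days after an experimentally induced myocardial infarction. The groups were wild-type non-infarcted, wild-type infarcted, Neil3-/- non-infarcted and Neil3-/- infarcted ventricle, so that the non-infarcted tissue also came from infarcted hearts. The labels do not give the deleted part of Neil3, or the number of mice behind each library.

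Each group was 1 library, so no difference has a replicate check and no test was made. Ratios of RPKM between libraries are given with exact Clopper-Pearson 95% intervals, which cover counting error only. The libraries held from 14.3 M to 18.2 M uniquely assigned reads. Neil3, which codes for a DNA glycosylase of base excision repair, stood at 1.83 RPKM in wild-type non-infarcted and 3.95 RPKM in wild-type infarcted tissue, and at 12.0 and 18.5 RPKM in the libraries labelled Neil3-/-. The Neil3 level thus went against the label, and these libraries are called "labelled knockout" throughout. The 12 cardiomyocyte markers summed to 28619 RPKM in wild-type non-infarcted and 12339.5 RPKM in wild-type infarcted tissue, and to 27241 and 7934 RPKM in the labelled knockout. The 6 neutrophil markers summed to 28.7 and 217 RPKM in wild type and to 24.8 and 252 RPKM in the labelled knockout. In such bulk tissue, fewer cells of a type and less RNA per cell cannot be told apart.

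Voltage-gated sodium channels carry the fast inward current that starts the action potential of working cardiomyocytes, and L-type calcium channels carry the slower current that triggers contraction. T-type calcium channels and the HCN channels, which open on hyperpolarisation and are gated by cyclic nucleotides, are best known from the sinoatrial node and conduction tissue, where they take part in pacemaking. Each sodium or calcium channel has a pore-forming alpha subunit. Sodium channels can be modulated by beta subunits of their own. Calcium channels can carry separate beta, alpha2delta and gamma subunits, which adjust gating and delivery to the membrane.

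Infarcted tissue held less RNA of most described channel genes in both genotypes. Scn4b, Cacna2d2, Hcn4 and Scn4a stood lowest against non-infarcted tissue, between 5.18-fold and 9.42-fold lower, and the pore genes Cacna1g and Cacna1c and the pacemaker gene Hcn2 were at least 2-fold lower as well. Those 4 lowest genes reached 1 RPKM in non-infarcted libraries alone, and their ratios shrink when 1 RPKM is added to every level. The log2 ratio then went from -3.18 to -1.52 for Scn4b, from -3.13 to -1.12 for Cacna2d2, from -2.38 to -1.45 for Hcn4 and from -2.37 to -1.43 for Scn4a in wild type. In the labelled knockout it went from -3.12 to -2.18, from -3.24 to -0.82, from -2.38 to -1.58 and from -2.61 to -1.75 for the same genes in this order, so that Cacna2d2 was no longer 2-fold lower. The beta subunit gene Cacnb3 and the pore gene Cacna1d were higher in infarcted tissue of each genotype, by less than 2-fold. Between genotypes, Scn4b was higher and Hcn2 lower in both regions of the labelled knockout.

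**Figure D1:**
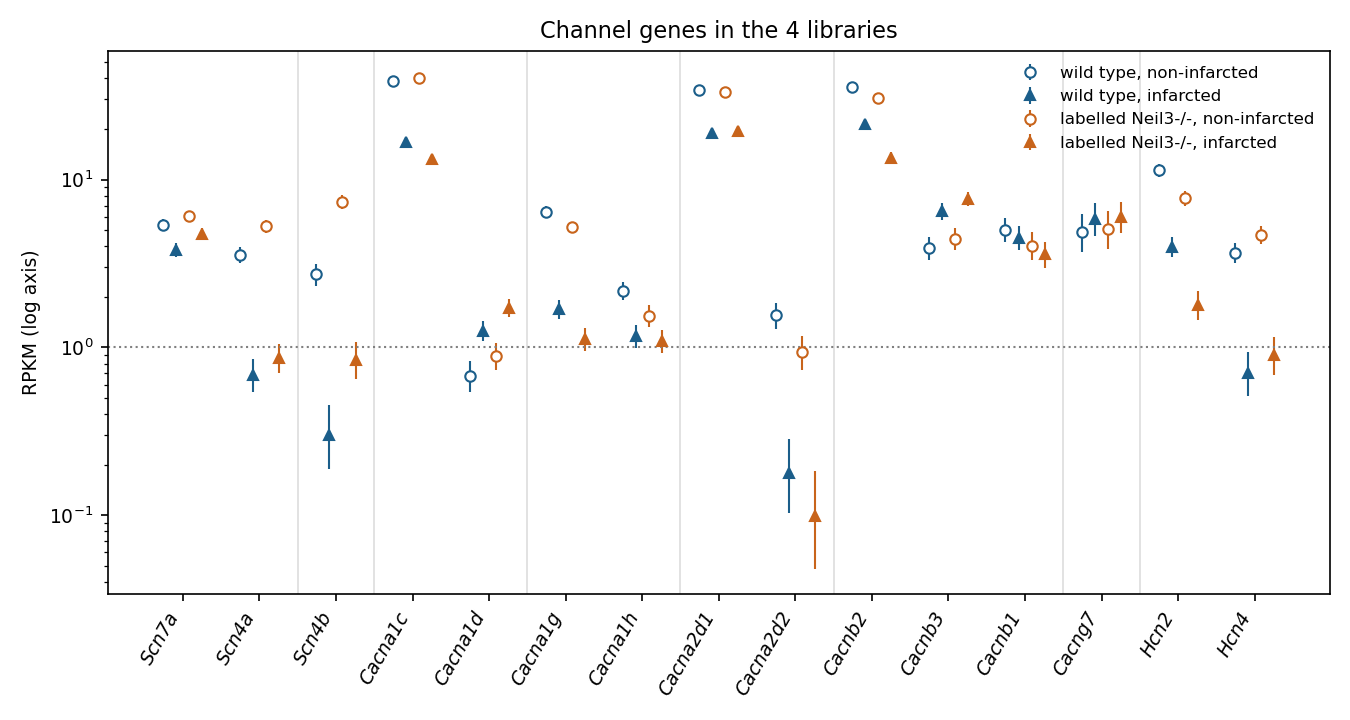
Level of the described channel genes in each of the 4 libraries, in RPKM on a log axis, with exact 95% intervals of the read number as bars, circles for non-infarcted and triangles for infarcted tissue, blue for wild type and orange for labelled knockout. The dotted line marks 1 RPKM, and Cacna1c, Cacna2d1 and Cacnb2 are the highest of the genes shown in every library, between 13.2 and 40.5 RPKM.

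In wild type, 8 of the 18 genes were at least 2-fold lower in infarcted than in non-infarcted tissue, against 5.33% of the 12716 genes that reached 1 RPKM in any library. None was 2-fold higher, against 10.8% of those genes. In the labelled knockout, 9 of the 18 were at least 2-fold lower, against 8.02% of genes, and none was 2-fold higher, against 13.0%. The same 8 genes were lower in both genotypes (among them Scn4a, Scn4b, Cacna1c, Cacna1g, Cacna2d2, Hcn2 and Hcn4), and Cacnb2 was the additional gene in the labelled knockout. The threshold itself favours a difference for some of them: 5 genes (among them Scn4a, Scn4b, Cacna2d2 and Hcn4) reached 1 RPKM in non-infarcted libraries alone, and Cacna1d in infarcted libraries alone. Among the 12 members at 1 RPKM or more in all 4 libraries, 3 were 2-fold lower in wild type, against 4.27% of the 11578 genes that met this condition, and 4 in the labelled knockout, against 6.94%. These were Cacna1c, Cacna1g and Hcn2 in both genotypes and Cacnb2 in the labelled knockout.

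The median log2 ratio of the 18 genes between infarcted and non-infarcted tissue was -0.88 in wild type and -0.98 in the labelled knockout. Over the 12 members at 1 RPKM or more in all 4 libraries it was -0.62 and -0.61. Over all genes compared it was 0.24 and 0.28, and over the 12 cardiomyocyte markers -1.36 and -1.71. Of the 18 genes, 6 lay below the cardiomyocyte median in wild type and 6 in the labelled knockout, namely Scn4a, Scn4b, Cacna1g, Cacna2d2, Hcn2 and Hcn4 in both. The share of all genes below these medians was not counted, so the 6 are not read as a trait of the channel genes. Among them, Scn4a, Scn4b, Cacna2d2 and Hcn4 reached 1 RPKM in non-infarcted libraries alone, which favours low infarct ratios. The part of the lower cardiomyocyte marker level in these ratios was not tested. Scaling the libraries by trimmed means (TMM) or by median ratios lowered the median of all genes by 0.22 to 0.26 on the log2 scale in the infarct comparisons. Under either scaling 10 members were at least 2-fold lower in each genotype. Cacna2d1 was then lower in both (log2 ratios of -1.09 and -1.02 with TMM), and Cacna1h in wild type (-1.11). With 1 RPKM added, 7 were lower in each genotype. The share of all genes was not computed for these settings. No member at least 2-fold apart changed direction under either scaling.

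**Figure D2:**
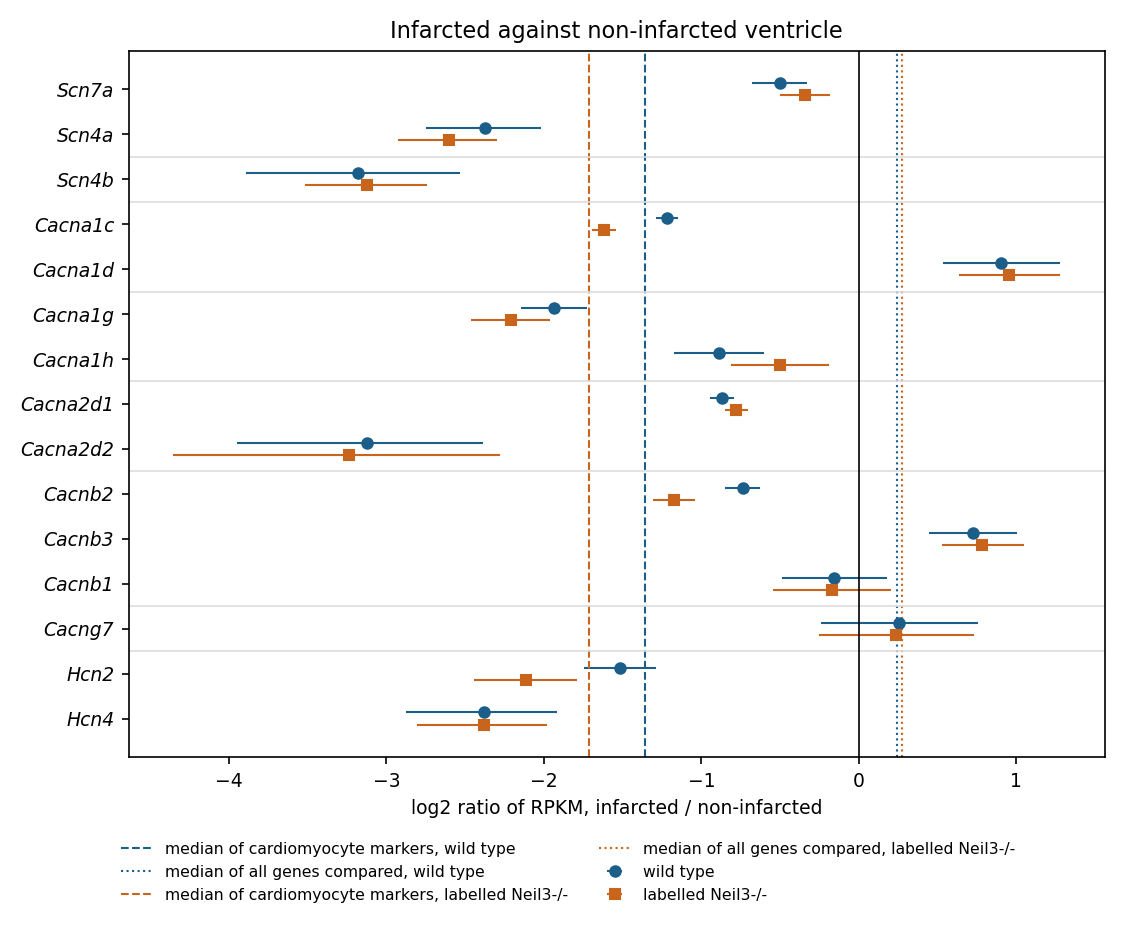
Log2 ratio of RPKM between infarcted and non-infarcted ventricle for each described channel gene, with 95% counting intervals, in wild type (blue circles) and labelled knockout (orange squares). Dashed lines mark the median of the cardiomyocyte markers (-1.36 and -1.71), dotted lines that of all genes compared (0.24 and 0.28), and only Cacna1d and Cacnb3 have intervals wholly above 0.

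The members that were lower in both genotypes share a direction, and the sequence before their start sites is shown so that it can be compared with the values. RefSeq windows (GRCm38.p6, not the build of the expression files) matched 13 of the 18 genes. The 5 genes lower in both genotypes with 1 start listed in the table are printed, each as the 250 bases upstream of the start on the gene's own strand, 5′ to 3′, with every CG dinucleotide in capitals. The windows lie at chr9:107399630-107399879 for Cacna2d2, chr10:79716384-79716633 for Hcn2, chr9:58822699-58822948 for Hcn4 and chr9:45138374-45138623 for Scn4b, all on the plus strand, and at chr11:106349391-106349640 on the minus strand for Scn4a.
Cacna2d2: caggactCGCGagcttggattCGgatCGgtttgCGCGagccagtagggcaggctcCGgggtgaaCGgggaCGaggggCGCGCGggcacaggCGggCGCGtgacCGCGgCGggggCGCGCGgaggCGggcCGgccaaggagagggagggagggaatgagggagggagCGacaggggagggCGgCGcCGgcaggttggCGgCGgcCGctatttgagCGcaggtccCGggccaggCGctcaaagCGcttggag
Hcn2: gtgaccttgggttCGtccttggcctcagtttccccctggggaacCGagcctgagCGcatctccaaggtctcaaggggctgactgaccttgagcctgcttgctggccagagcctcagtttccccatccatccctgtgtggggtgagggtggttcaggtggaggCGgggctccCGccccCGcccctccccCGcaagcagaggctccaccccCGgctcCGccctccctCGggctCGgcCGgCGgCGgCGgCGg
Hcn4: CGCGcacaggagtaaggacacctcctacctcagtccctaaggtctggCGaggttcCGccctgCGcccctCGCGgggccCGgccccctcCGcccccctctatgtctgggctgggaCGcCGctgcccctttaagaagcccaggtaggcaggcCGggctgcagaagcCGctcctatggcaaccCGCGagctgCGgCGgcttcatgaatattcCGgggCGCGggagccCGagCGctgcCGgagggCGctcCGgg
Scn4b: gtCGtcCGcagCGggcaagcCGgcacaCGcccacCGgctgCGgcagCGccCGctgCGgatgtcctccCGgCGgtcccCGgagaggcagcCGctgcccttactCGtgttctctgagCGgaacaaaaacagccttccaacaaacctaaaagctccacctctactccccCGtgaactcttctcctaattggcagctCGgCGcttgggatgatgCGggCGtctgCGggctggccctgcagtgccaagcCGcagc
Scn4a: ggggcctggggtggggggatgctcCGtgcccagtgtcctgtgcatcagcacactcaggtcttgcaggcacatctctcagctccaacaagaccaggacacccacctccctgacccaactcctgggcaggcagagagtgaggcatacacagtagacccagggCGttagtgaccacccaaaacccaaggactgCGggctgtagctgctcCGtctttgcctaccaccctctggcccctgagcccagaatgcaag

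Cacna2d2 had 34 CG dinucleotides and 74.4% G and C in this window, Hcn4 25 and 71.2%, Scn4b 23 and 66.0%, Hcn2 16 and 70.4%, and Scn4a 4 and 61.6%. Over the 32851 promoter windows of the table the medians were 6 CG dinucleotides and 52.4% G and C. Scn4a, the skeletal muscle sodium channel gene, was thus the one of the 5 with fewer CG dinucleotides than the median window. High values were not particular to these 5 genes. Of the genes with 1 start that were not 2-fold lower in both genotypes, Cacna2d1 had 36 and 82.4%, Cacng7 9 and 58.0%, and Scn7a 3 and 53.2%. Cacna1d, which was higher in infarcted tissue, had 50 and 86.4% at 1 of its 2 starts and 2 and 39.6% at the other. Both strands were searched for the MEF2 site and the CArG box (held by 2.92% and 1.47% of all windows), GATAA (22.6%), AGGTGT (11.8%), CAAGTG (11.6%), TATAAA (12.4%) and TTCAGCACC (0.301%), where TATAAA can lie inside a MEF2 site. Of the 5 windows, the one of Hcn4 held a match, to AGGTGT on the minus strand, at positions -233 to -228 from the start. The bases just after that start were not found near a transcript start of the GENCODE vM21 annotation, unlike those of 16 of the 19 windows searched for, so the Hcn4 window rests on the start in the RefSeq table. Among the windows not printed, matches lay in those of Cacna1d (GATAA and TATAAA), Cacnb2 (CAAGTG) and Scn7a (GATAA). A match describes the sequence alone, and no match says only that these letters are absent from the window.

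Of the sodium channel alpha subunits, Scn7a and Scn4a are described here, and the number after each symbol is its Entrez gene identifier. Scn7a (20272), which codes for an atypical family member best known as a sodium sensor of glia, had 589 reads in non-infarcted and 482 in infarcted tissue of wild type, and 631 and 634 in the labelled knockout. These reads correspond to 5.39, 3.81, 6.02 and 4.75 RPKM, so both infarcted libraries were below both non-infarcted ones. Its infarct ratio was 0.706 in wild type (0.625 to 0.798) and 0.789 in the labelled knockout (0.705 to 0.882). Scn4a (110880), the pore gene of the skeletal muscle sodium channel, stood at 3.55 and 0.685 RPKM in wild type and at 5.27 and 0.866 RPKM in the labelled knockout, from 349, 78, 497 and 104 reads. The non-infarcted libraries were several times higher in each genotype: infarcted tissue was 5.18-fold lower in wild type (4.05 to 6.72) and 6.09-fold lower in the labelled knockout (4.92 to 7.59). Of the 7 skeletal muscle markers 6 were listed, with summed levels of 41.9 and 23.4 RPKM in wild type and 90 and 56.4 RPKM in the labelled knockout, and Tnnc2, Myh4 and Myh1 had no read in at least 1 library. Most of this sum was Myl1, at 37.8, 18.1, 84.6 and 47.5 RPKM. The other 2 of the 3 markers compared went the other way, with Tnnt3 at 2.85, 3.92, 2.84 and 5.85 RPKM and Tnni2 at 1.11, 1.30, 2.52 and 3.05 RPKM, and the median log2 ratio of the 3 was 0.23 in wild type and 0.28 in the labelled knockout. The part of skeletal muscle genes in the Scn4a level was not tested.

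The sodium channel beta subunit genes code for single-pass membrane proteins that modulate the pore. Scn4b (399548), whose product is linked to resurgent sodium current, stood at 2.72 RPKM in non-infarcted and 0.300 RPKM in infarcted tissue of wild type, and at 7.32 and 0.841 RPKM in the labelled knockout, from 172, 22, 444 and 65 reads. Each infarcted library was well below the non-infarcted library of its genotype, by 9.06-fold in wild type (5.79 to 14.8) and 8.70-fold in the labelled knockout (6.69 to 11.5). The share of the Scn4b gene model covered by reads was 76.5% and 20% in wild type, and in the labelled knockout 96.2% and 50.7%.

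Cacna1c (12288), the pore gene of the main L-type calcium channel of ventricular muscle, stood at 38.6 RPKM in non-infarcted and 16.6 RPKM in infarcted tissue of wild type, and at 40.5 and 13.2 RPKM in the labelled knockout, from 4779, 2381, 4808 and 1992 reads. Both infarcted libraries were well below both non-infarcted ones. Infarcted tissue was 2.33-fold lower in wild type (2.21 to 2.44) and 3.07-fold lower in the labelled knockout (2.92 to 3.24). These values lay 0.14 and 0.09 above the cardiomyocyte marker medians on the log2 scale. Cacna1d (12289), the L-type pore gene of sinoatrial and neuroendocrine cells, went the other way: it had 91 and 197 reads in wild type and 115 and 284 in the labelled knockout, or 0.673, 1.26, 0.886 and 1.72 RPKM. Both infarcted libraries were above both non-infarcted ones, with ratios of 1.87 (1.45 to 2.42) and 1.94 (1.56 to 2.43). With 1 RPKM added, the log2 ratio of Cacna1d shrank from 0.90 to 0.43 in wild type and from 0.96 to 0.53 in the labelled knockout.

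The T-type pore genes Cacna1g and Cacna1h were both lower in infarcted tissue. Cacna1g (12291) stood at 6.45 and 1.69 RPKM in wild type and at 5.18 and 1.12 RPKM in the labelled knockout, from 791, 240, 610 and 168 reads. That is 3.82-fold lower in infarcted tissue of wild type (3.30 to 4.43) and 4.62-fold lower in the labelled knockout (3.89 to 5.52). Cacna1h (58226) stood at 2.16 and 1.17 RPKM in wild type and at 1.54 and 1.09 RPKM in the labelled knockout, with ratios of 0.541 (0.443 to 0.659) and 0.707 (0.569 to 0.879). The ratio of its 2 infarcted libraries was 0.931, with an interval that includes 1 (0.746 to 1.16), and Cacna1h held 25.1% and 40.4% of the T-type RPKM in wild type and 22.8% and 48.5% in the labelled knockout. None of the 3 genes for the P/Q-, N- and R-type pores, which are known from synapses, reached 1 RPKM.

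The alpha2delta subunits sit outside the membrane, raise the number of calcium channels at the surface and bind gabapentinoid drugs. Cacna2d1 (12293), the ventricular form, stood at 34.4 and 18.8 RPKM in wild type and at 33.2 and 19.4 RPKM in the labelled knockout. The ratio between genotypes was 0.967 in non-infarcted (0.924 to 1.01) and 1.03 in infarcted tissue (0.974 to 1.09), and the infarct ratios were 0.548 (0.520 to 0.577) and 0.583 (0.554 to 0.613). Cacna2d2 (56808), a relative known from cerebellum and found also in heart, had 128 and 17 reads in wild type and 74 and 10 in the labelled knockout, or 1.55, 0.178, 0.935 and 0.0992 RPKM. Infarcted tissue was 8.72-fold lower in wild type (5.24 to 15.4) and 9.42-fold lower in the labelled knockout (4.85 to 20.5). Reads covered 58.0% and 14.2% of its gene model in wild type and 42.2% and 8.85% in the labelled knockout, so the infarcted values rest on little of the gene. The atrial marker Myl7 stood at 49.0 and 0.290 RPKM in wild type and at 10.6 and 0.183 RPKM in the labelled knockout, and Sln at 7.89 and 2.22 RPKM in the non-infarcted libraries and at 0 reads in both infarcted libraries. The 4 listed atrial markers, summed, followed Nppa, which is also a stress gene of the ventricle, at 1835 and 2501 RPKM in wild type and 1256 and 1808 RPKM in the labelled knockout. Cacna2d2 was highest in the library in which Myl7, Sln and Myl4 were highest, and their part in its level was not tested.

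The intracellular beta subunits bind the calcium channel pore and aid its transport to the membrane, and 3 of 4 were described. Cacnb2 (12296), the main beta subunit of heart muscle, stood at 35.6 and 21.3 RPKM in wild type and at 30.5 and 13.5 RPKM in the labelled knockout. Its infarct ratio was 0.600 in wild type (0.555 to 0.649), and in the labelled knockout infarcted tissue was 2.26-fold lower (2.06 to 2.47). Cacnb3 (12297), a form of smooth muscle, neurons and immune cells, stood at 3.90 and 6.45 RPKM in wild type and at 4.44 and 7.65 RPKM in the labelled knockout. Both infarcted libraries lay above both non-infarcted libraries, with ratios of 1.65 (1.36 to 2.01) and 1.72 (1.44 to 2.07). Cacnb3 made up 8.72% and 19.8% of the beta subunit RPKM in wild type and 11.3% and 30.6% in the labelled knockout. The 8 macrophage markers, summed, stood at 416 and 1101 RPKM in wild type and at 698 and 1537 RPKM in the labelled knockout, which is the order of the 4 libraries for Cacnb3 too. The summed markers of smooth muscle and pericytes, of fibroblasts and of lymphocytes had this order as well. Those of neurons, neutrophils, endothelium and of Schwann cells and glia did not, with neurons at 41.7 and 74.8 RPKM in wild type and 32.9 and 62.3 RPKM in the labelled knockout. The sums also hide single genes: 3 of 9 smooth muscle and pericyte markers and 3 of 8 fibroblast markers were lower in infarcted tissue of wild type. The part of none of these cell types in the Cacnb3 level was tested. Cacnb1 (12295), the skeletal muscle form that is also present in heart, stood between 3.58 and 5.01 RPKM, and the intervals of both infarct ratios, 0.898 (0.712 to 1.13) and 0.888 (0.685 to 1.15), include 1. This holds for the deposited scaling alone. With TMM the log2 ratio went from -0.16 to -0.38 in wild type and from -0.17 to -0.41 in the labelled knockout. These shifts take both upper limits below 1, as do those of median-ratio scaling.

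Cacng7 (81904) was the 1 of 7 gamma subunit genes that reached 1 RPKM, and its product is known as a partner of glutamate receptors as well as of calcium channels. It stood at 4.86 and 5.81 RPKM in wild type and at 5.07 and 5.97 RPKM in the labelled knockout, from 60 to 90 reads. The intervals of both infarct ratios, 1.19 (0.846 to 1.69) and 1.18 (0.840 to 1.66), include 1. With TMM scaling the log2 ratio of the labelled knockout went from 0.24 to -0.000874, and with median-ratio scaling to -0.02, so no direction is read from it.

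The pacemaker channel genes Hcn2 and Hcn4 were at least 2-fold lower in infarcted tissue of both genotypes. Hcn2 (15166), the form known from ventricular muscle, stood at 11.3 and 3.97 RPKM in wild type and at 7.73 and 1.79 RPKM in the labelled knockout, from 540, 219, 353 and 104 reads. It was 2.86-fold lower in infarcted tissue of wild type (2.44 to 3.36) and 4.32-fold lower in that of the labelled knockout (3.46 to 5.43). Hcn4 (330953), the main form of the sinoatrial node, stood at 3.66 and 0.702 RPKM in wild type and at 4.68 and 0.897 RPKM in the labelled knockout, from 207, 46, 254 and 62 reads. Its ratio was close between genotypes, at 5.21-fold lower (3.77 to 7.34) and 5.22-fold lower (3.94 to 7.0). In non-infarcted tissue, Hcn4 was higher in the labelled knockout than in wild type, and the atrial marker Myl7 was lower (10.6 against 49.0 RPKM). Both genes were lower in infarcted tissue of each genotype, with Myl7 at 0.290 RPKM in wild type and 0.183 RPKM in the labelled knockout. The part of atrial tissue in the Hcn4 level was not tested.

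The 24 genes below 1 RPKM in all 4 libraries comprised 6 sodium channel alpha and 2 beta subunits, 2 L-type, 3 P/Q-, N- or R-type and 1 T-type pore genes, 2 alpha2delta, 1 beta and 6 gamma subunits, and 1 pacemaker channel gene. Of these, 12 had 10 reads or fewer in every library, and 9 had no read in at least 1 library, where the floor of 3 reads corresponds to between 0.0412 and 0.0525 RPKM for a gene of 4 kb. Nearest below the threshold were Cacng4 with a highest level of 0.949 RPKM, Cacna1s with 0.918 RPKM and Cacna1a with 0.883 RPKM, and nearest above it were Cacna2d2 with 1.55 RPKM and Cacna1d with 1.72 RPKM. Relative to library depth, 8 of the 24 genes had more reads in both infarcted libraries than in both non-infarcted ones, and 4 had fewer. Of the 12716 genes compared, 8534 were higher and 4157 lower in infarcted tissue of wild type. In the labelled knockout 8396 were higher and 4293 lower. The share over all genes below 1 RPKM was not counted, so no direction is read from these 24 genes.

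Between genotypes, Scn4b was the 1 of 18 genes that was at least 2-fold higher in the labelled knockout in non-infarcted tissue, against 0.897% of all genes compared, and none was 2-fold lower, against 0.550%. In infarcted tissue Scn4b was again the 1 gene that was 2-fold higher, against 0.661% of genes, and Hcn2 the 1 gene that was 2-fold lower, against 0.779%. The Scn4b ratio was 2.69 in non-infarcted tissue (2.25 to 3.23) and 2.80 in infarcted tissue (1.70 to 4.77), the latter from 22 and 65 reads. Hcn2 was 1.47-fold lower in non-infarcted tissue (1.28 to 1.68) and 2.22-fold lower in infarcted tissue (1.75 to 2.83). Neither call in infarcted tissue held when the whole interval had to lie beyond 2-fold, or with 1 RPKM added, where the log2 ratio went from 1.49 to 0.50 for Scn4b and from -1.15 to -0.83 for Hcn2. Both infarcted levels of Scn4b were below 1 RPKM. The ratio of the skeletal muscle marker Myl1 was 2.24 (2.02 to 2.48) in non-infarcted and 2.62 (2.30 to 2.99) in infarcted tissue, and that of Tnni2 was 2.27 (1.07 to 5.14) and 2.34 (1.25 to 4.59). Tnnt3 differed from these, with a ratio of 0.998 (0.648 to 1.53) in non-infarcted and 1.49 (1.11 to 2.02) in infarcted tissue. The part of these markers in the Scn4b ratio was not tested.

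Smaller genotype ratios differed by gene within each channel. The interval of the Scn4b ratio lay above 1 in both regions. Intervals wholly below 1 in both regions were found for Cacnb2, with ratios of 0.857 (0.795 to 0.923) and 0.633 (0.575 to 0.696), Cacna1g, with 0.804 (0.722 to 0.894) and 0.664 (0.542 to 0.812), and Hcn2. Hcn4 had a ratio of 1.28 in each region, with an interval above 1 in non-infarcted tissue (1.06 to 1.54) and one that includes 1 in infarcted tissue (0.859 to 1.91). Scn4a, at 1.48 (1.29 to 1.71) and 1.26 (0.934 to 1.72), showed the same pattern. Cacna1d, at 1.32 (0.992 to 1.75) and 1.37 (1.14 to 1.65), Cacnb3, at 1.14 (0.915 to 1.41) and 1.19 (1.02 to 1.38), and Scn7a, at 1.12 (0.996 to 1.25) and 1.25 (1.11 to 1.41), had an interval above 1 in infarcted tissue alone. Cacna2d2, at 0.603 (0.446 to 0.808) and 0.558 (0.228 to 1.29) and Cacna1h, at 0.712 (0.586 to 0.863) and 0.931, had one below 1 in non-infarcted tissue alone. For Cacnb1 and Cacng7 the intervals include 1 in both regions as deposited. Cacna1c was 1.05-fold higher in non-infarcted tissue (1.01 to 1.09) and 1.26-fold lower in infarcted tissue (1.19 to 1.34). The non-infarcted interval of Cacna1c includes 1 once the libraries are scaled by TMM or by median ratios. Under either scaling the infarcted interval of Cacnb3 includes 1 too, and that of Cacnb1 lies just below 1, so no direction is read from either.

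The median log2 ratio of the 18 genes between genotypes was 0.01 in non-infarcted and -0.03 in infarcted tissue, and over all genes compared it was 0.02 in each region. The cardiomyocyte markers had medians of -0.10 and -0.62. In infarcted tissue Cacnb2, Cacna2d2 and Hcn2 lay below that marker median, at log2 ratios of -0.66, -0.84 and -1.15. The share of all genes below it was not counted. The part of the lower marker level in these ratios was not tested.

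**Figure D3:**
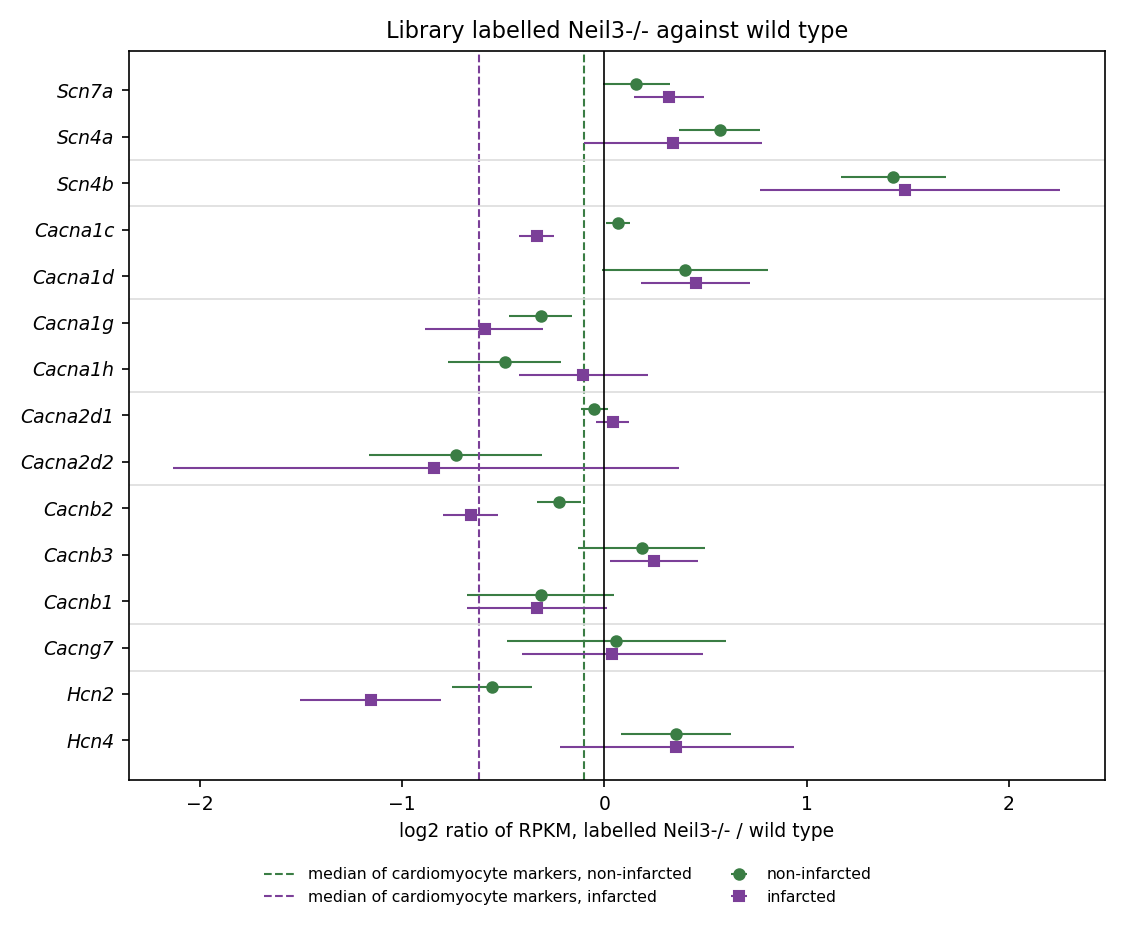
Log2 ratio of RPKM between labelled knockout and wild type for each described channel gene, with 95% counting intervals, in non-infarcted (green circles) and infarcted tissue (purple squares), and dashed lines at the cardiomyocyte marker medians of -0.10 and -0.62. Scn4b lies farthest to the right in both regions, and Hcn2 farthest to the left in infarcted tissue.

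The infarct ratio was lower in the labelled knockout than in wild type for 12 of the 18 genes, against 51.0% of the 12703 genes with a ratio in both genotypes. The counting interval of the difference lay below 0 for 4 genes, against 15.9% of all genes, and above 0 for none, against 13.7%, which describes these libraries and is no test of an interaction. Among the 4, the log2 differences were -0.60 for Hcn2 (-0.99 to -0.21), -0.44 for Cacnb2 (-0.61 to -0.27) and -0.40 for Cacna1c (-0.51 to -0.30). The cardiomyocyte marker median was also lower in the labelled knockout, at -1.71 against -1.36. For Scn4b, Hcn4 and Cacnb1 the differences were 0.06 (-0.68 to 0.80), -0.000847 (-0.61 to 0.61) and -0.02 (-0.50 to 0.47).

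Levels of one gene relative to another within a library do not depend on how the libraries were scaled. Cacna2d1 stood at 88.9% (85.2 to 92.8) and 113% (107 to 120) of the Cacna1c level in wild type and 82.0% (78.5 to 85.7) and 147% (139 to 156) in the labelled knockout. Cacnb2 stood at 92.0% and 128% of Cacna1c in wild type and at 75.2% and 102% in the labelled knockout. Both auxiliary genes were therefore higher relative to Cacna1c in infarcted than in non-infarcted tissue of each genotype, while their own levels were lower. These are ratios over the bulk tissue, and the part of cell types in them was not tested.

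Cacnb3 stood at 11% (9.30 to 12.9) and 30.2% (26.6 to 34.3) of Cacnb2 in wild type and at 14.6% (12.4 to 17.0) and 56.6% (50 to 64.1) in the labelled knockout. Cacna1d stood at 1.74% and 7.56% of Cacna1c in wild type and at 2.19% and 13.0% in the labelled knockout. In both pairs the less abundant gene made up more of the pair in infarcted tissue, and most in the infarcted labelled knockout. Cacna1h stood at 33.5% (29.0 to 38.5) and 69.1% (56.4 to 84.6) of Cacna1g in wild type and at 29.7% (25.0 to 35.1) and 97.0% (77.7 to 121) in the labelled knockout, so the 2 T-type genes were at near-equal levels in the last library. Hcn4 stood at 32.2% (27.3 to 37.9) and 17.7% (12.6 to 24.4) of Hcn2 in wild type and at 60.5% (51.3 to 71.3) and 50.2% (36.0 to 69.3) in the labelled knockout. Here the genotypes were farther apart than the regions, and the intervals of the 2 regions of the labelled knockout overlap.

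**Figure D4:**
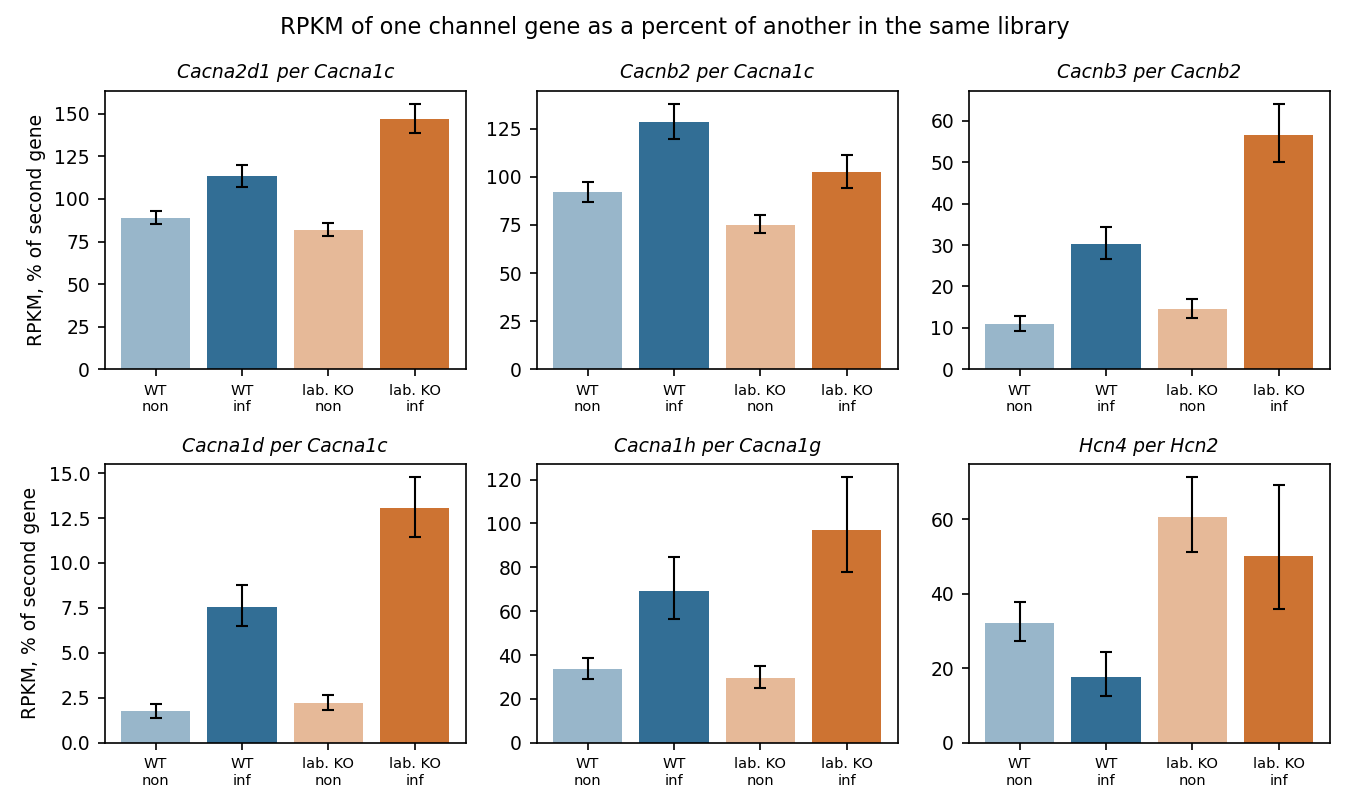
RPKM of one channel gene as a percent of a second gene in the same library, for 6 pairs, with 95% counting intervals as bars on each column (WT, wild type; lab. KO, labelled knockout; non, non-infarcted; inf, infarcted). The columns for infarcted tissue are the taller ones in each genotype for Cacna2d1, Cacnb2 and Cacna1d against Cacna1c, Cacnb3 against Cacnb2 and Cacna1h against Cacna1g, and the shorter ones for Hcn4 against Hcn2.

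Other genes of the same channels were read from lists of partners and regulators. Of 14 sodium channel partners, 12 were compared, with median log2 ratios of -0.41 in wild type and -0.61 in the labelled knockout. At least 2-fold lower in infarcted tissue were 1 in wild type, against 5.33% of all genes compared, and 3 in the labelled knockout, against 8.02%. Ank2, the ankyrin that anchors cardiac membrane proteins, was the 1 gene in wild type, at 2.17-fold lower (2.02 to 2.32), and was 2.48-fold lower (2.32 to 2.66) in the labelled knockout, where Fgf13 was 2.60-fold lower (2.24 to 3.02). Both were named after their values were seen. Partners with high levels included Pkp2, a desmosomal plakophilin, Camk2d, a calcium-dependent kinase of heart muscle, and Sgk1, a kinase that raises the surface level of the channel. Pkp2 stood at 83.3 and 66.8 RPKM in wild type and at 76.3 and 45.5 RPKM in the labelled knockout, and Sgk1 at 25.5 and 30.3 RPKM and at 26.1 and 31.6 RPKM.

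Of 18 calcium channel regulators, 14 were compared, and their median log2 ratios were 0.21 in wild type and 0.25 in the labelled knockout, near those of all genes. None was at least 2-fold lower in wild type, against 5.33% of all genes, and 3 were in the labelled knockout (Jph1, Jph2 and Adrb1), against 8.02%. Bin1 and Stac2 were 2-fold higher in both genotypes, against 10.8% of all genes in wild type and 13.0% in the labelled knockout. These 5 were named after their values were seen. Bin1, which shapes the T-tubule membrane, had infarct ratios of 2.25 in wild type (1.96 to 2.58) and 2.18 in the labelled knockout (1.93 to 2.46). Rrad, the small G protein that restrains L-type channels, stood at 157 and 128 RPKM in wild type and at 134 and 87.7 RPKM in the labelled knockout.

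Of 10 pacemaker channel partners and nodal factors, 6 were compared. In infarcted tissue of each genotype 1 was at least 2-fold lower, against 5.33% of all genes in wild type and 8.02% in the labelled knockout. This was Bves, a membrane protein of the Popeye family that binds cyclic nucleotides, at 2.22-fold lower in wild type (2.0 to 2.45) and 2.25-fold lower in the labelled knockout (2.04 to 2.49). Popdc2, of the same family, stood at 384 and 320 RPKM in wild type and at 346 and 190 RPKM in the labelled knockout. The median log2 ratios of the 6 genes were -0.25 and -0.46. Between genotypes no partner or regulator in these 3 lists was at least 2-fold apart in either region. Such differences were rare among all genes, at 0.897% higher and 0.550% lower in non-infarcted tissue and 0.661% and 0.779% in infarcted tissue.

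**Figure D5:**
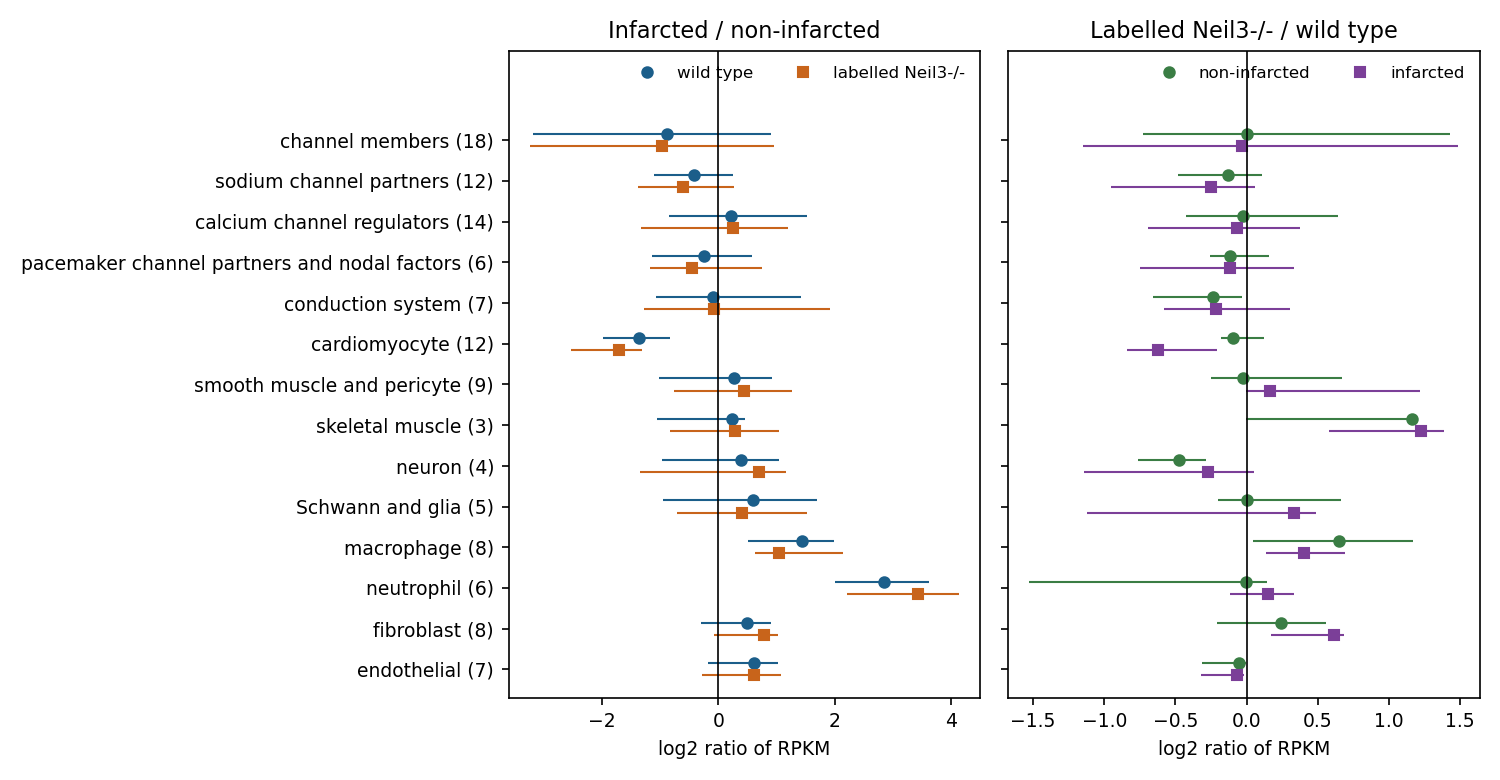
Log2 ratios of RPKM for the channel genes and for lists of partners and cell type markers, with the number of genes compared in parentheses, the median as a point and the lowest to highest gene as a line, for infarcted against non-infarcted tissue (left) and labelled knockout against wild type (right). The channel genes span the widest range of the 4 channel-related lists in every comparison and their medians lie between those of the cardiomyocyte markers and the calcium channel regulators on the left.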

How the data were processed

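The authors deposited 1 table for each of the 4 libraries, made by Illumina sequencing per the labels. Per the file headers, each deposited table gives the read count of uniquely assigned reads per gene, the RPKM and the coverage of the gene model in percent. The build was mm9, per the submitters' processing notes. For the aligner, the counting tool, its strand setting and the annotation, no name is stated in the labels or headers used here. Gene lengths were the same in all 4 tables for every member.

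Members were matched by symbol, and the members, gene lists and comparisons were chosen with earlier results of these data known. Genes absent from a table were taken as 0 reads, with a floor of 3 reads per library. Every member at 1 RPKM or more in any library was named with its values, as were Neil3 and, of each gene list, up to 4 genes with the highest mean RPKM. Some genes that meet these rules are not reported here and not drawn as single genes in the plots, but stay in the counts and medians. With 1 library per group no p-value was computed. A gene was counted as higher or lower from 2-fold in the RPKM ratio, and intervals of ratios are exact Clopper-Pearson 95% intervals of the read share of both libraries (Python 3.11.15, scipy 1.17.1). Intervals of the difference between infarct ratios are instead 95% normal approximations from the read numbers of the 4 libraries.

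Alternatives were TMM factors (edgeR 4.0.16, used for scaling alone) and median-ratio factors, 1 or 0.1 RPKM added, a filter at 5 RPKM or none, 1.5-fold, and the whole interval beyond 2-fold. Filters on the mean over the 4 libraries and on all 4 libraries, at 1 RPKM, were added after the data were seen. The labels give no batch. Promoter windows came from RefSeq (GRCm38.p6) and were used for sequence alone.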

Additional observations from a re-analysis of the deposited data

Results flagged for a closer look

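With the scaling as deposited, Cacna1c was the 1 described gene whose genotype ratios lay on opposite sides of 1 with intervals that exclude 1 in both regions. Its RPKM ratio between labelled knockout and wild type was 1.049 in non-infarcted tissue (95% counting interval 1.01 to 1.09) and 0.7934 in infarcted tissue (0.747 to 0.842). In non-infarcted tissue the log2 ratio went from 0.0685 to 0.0519 with TMM and to 0.0560 with median ratios. Either shift takes the lower limit of that interval, 1.007 as deposited, below 1, so no direction is read from the non-infarcted ratio. How many of all genes compared show this pattern was not counted. With 1 library per group, the difference between regions was not tested. The cardiomyocyte markers had median log2 genotype ratios of -0.10 and -0.62 in the same regions.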

How the results depend on the processing

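Each group was 1 library, so no replicate could be left out. No paired analysis was possible because each group holds 1 library, which leaves no spread to estimate. The share of all genes was computed for the main setting and, in the infarct comparisons, for 1 RPKM in all 4 libraries. The other counts in this section have no such share beside them and describe the dependence on the setting alone. Without a filter on RPKM, infarcted tissue of wild type had 7 members at least 2-fold higher and the labelled knockout 5, and the medians were -0.1945 and -0.08586, mostly from genes with few reads. At 1.5-fold, 2 were higher in each genotype. In wild type, 5 were lower with a filter at 5 RPKM and 3 with 1 RPKM in all 4 libraries, where 4 were lower in the labelled knockout. The wild-type infarct median was -1.10 with TMM, -1.11 with median ratios and -0.62 with 1 RPKM in all 4 libraries. The labelled knockout median was -1.21, -1.24 and -0.61 under these settings, -0.73 with 1 RPKM added and -0.78 with a filter at 5 RPKM or on the mean.

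Between genotypes in non-infarcted tissue, 3 were higher and 2 lower without a filter, 1 was lower at 1.5-fold, and 0 were higher with 1 RPKM in all 4 libraries, which leaves out Scn4b. The median, near 0, changed sign to -0.01083 with TMM, -0.006776 with median ratios and -0.12 with 1 RPKM in all 4 libraries. In infarcted tissue, 2 were higher and 3 lower without a filter, and 5 were lower at 1.5-fold. With 1 RPKM added, or with the whole interval beyond 2-fold, 0 were higher and 0 lower, and 0 were higher with 1 RPKM in all 4 libraries. The median changed sign to 0.04032 with a filter at 5 RPKM or on the mean. The 2-fold calls of Scn4b and Hcn2 in infarcted tissue therefore depend on these settings. No member at least 2-fold apart changed direction under another scaling or with RPKM added.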

Other observations

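Of 8 conduction system genes, 7 were compared. Id2, a transcriptional inhibitor active in conduction tissue and in many other cells, stood at 10.5 RPKM in non-infarcted and 27.9 RPKM in infarcted tissue of wild type, and at 9.12 and 34.4 RPKM in the labelled knockout. Irx3, a transcription factor of the ventricular conduction system, went the other way, at 23.8 and 11.3 RPKM in wild type and at 20.2 and 8.32 RPKM in the labelled knockout. The connexin gene Gja5 stood at 5.68 and 8.88 RPKM in wild type and at 4.8 and 8.75 RPKM in the labelled knockout, and Gjc1 between 10.2 and 13.1 RPKM. The list thus held genes on both sides, with median log2 infarct ratios of -0.09 and -0.08.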
